A study of Mus musculus with 10 samples.

Results

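Ccr7, S1pr1, Klf2, Foxo1, Igfbp4 and Dapl1 were followed through the T cells of mouse colorectal carcinoma. They were taken by symbol from the gene lists of 5 single-cell RNA libraries, in which each symbol matched 1 row, and they make up 6 of 31053 features. The tumour-infiltrating T cells had been profiled in droplets, reading transcripts at their 5′ end, and 5 matched libraries held their T cell receptor (TCR) chains. Per the labels, 2 libraries of each kind were untreated, 1 came after treatment with S. chamaejasme (Stellera chamaejasme, a flowering plant) and 2 after S. chamaejasme together with an antibody against PD-1, an inhibitory receptor of T cells. The last group is called the combination here. The labels give no strain, age, dose, tumour model or time, no group received anti-PD-1 alone, and nothing says whether replicates came from separate animals, so p-values measure the spread between these libraries.

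T cells that have not met antigen, and central memory T cells, circulate between blood and lymph nodes. CCR7, a chemokine receptor, brings them into lymph nodes, and S1PR1, a receptor for the lipid sphingosine-1-phosphate, lets them leave. KLF2 is a transcription factor of resting T cells that activates S1pr1. FOXO1 stands above KLF2 and also activates Ccr7 and Il7r, and it is held out of the nucleus by kinase signalling after activation, so its protein activity is not read from its mRNA. The surface protein CD69 binds S1PR1 and takes it off the cell surface. Igfbp4 encodes a secreted protein that binds insulin-like growth factors, and Dapl1 a small protein related to DAP1, a negative regulator of autophagy. Transcripts of both are commonly used as signs of naive T cells.

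The 6 genes lie on 4 mouse chromosomes. In the GENCODE annotation of GRCm38, Ccr7 spans chr11:99144196-99155077 on the minus strand and Igfbp4 chr11:99041244-99054392 on the plus strand. S1pr1 spans chr3:115710433-115715072 on the minus strand and Foxo1 chr3:52268336-52353221 on the plus strand. Klf2 spans chr8:72319033-72321656 and Dapl1 chr2:59484653-59505020, both on the plus strand.

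Promoters from RefSeq (GRCm38.p6) were found for Dapl1, Klf2, Igfbp4 and Foxo1 (4 of 6), and the 250 bases before the RefSeq start were searched on both strands for 3 motifs. These were the FOXO core GTAAACA, the CACCC box of the KLF family, CCACACCC, and the MEF2 consensus by its name alone, since MEF2 factors act on the Klf2 promoter. They do not overlap each other in these windows. The 3 promoters with a match are shown because all 3 genes were lower in expanded clones of both classes in the results that follow. Capitals mark the match, and all 3 sequences are given 5′ to 3′ on the plus strand, at chr2:59484403-59484652 for Dapl1, chr8:72318812-72319061 for Klf2 and chr11:99040994-99041243 for Igfbp4.
Dapl1: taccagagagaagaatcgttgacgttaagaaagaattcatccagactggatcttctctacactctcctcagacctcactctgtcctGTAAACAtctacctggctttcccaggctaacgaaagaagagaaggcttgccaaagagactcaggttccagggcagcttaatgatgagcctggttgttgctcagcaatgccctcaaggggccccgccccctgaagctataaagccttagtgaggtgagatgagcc
Klf2: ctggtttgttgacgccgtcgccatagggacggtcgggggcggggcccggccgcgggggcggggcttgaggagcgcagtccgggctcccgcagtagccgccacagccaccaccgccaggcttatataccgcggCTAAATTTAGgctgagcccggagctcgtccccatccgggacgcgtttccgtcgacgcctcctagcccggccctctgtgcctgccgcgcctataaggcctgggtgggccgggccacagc
Igfbp4: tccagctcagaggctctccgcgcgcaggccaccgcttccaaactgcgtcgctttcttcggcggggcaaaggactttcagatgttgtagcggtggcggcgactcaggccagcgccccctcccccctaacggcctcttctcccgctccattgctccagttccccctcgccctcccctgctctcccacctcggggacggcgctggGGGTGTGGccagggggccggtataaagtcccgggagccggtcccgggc
The Dapl1 promoter held the FOXO core 164 bases before the start, as did 3.17% of 32841 promoters of the same length. The Klf2 promoter held the MEF2 consensus 118 bases before the start, against 2.92% of promoters. In the Igfbp4 promoter the CACCC box stood on the minus strand, so that its reverse complement is printed, 48 bases before the start, against 3.20% of promoters. No match of the 3 was found in the Foxo1 window. A match describes letters and is not a bound site.

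Cells were placed in classes by their own transcripts and TCR chains, with no clustering. Cells with exactly 1 productive TRB (TCR beta) chain were CD8 with a UMI (a counted transcript molecule) of Cd8a or Cd8b1 and none of Cd4. They were regulatory T cells (Treg) with a UMI of Cd4 and of Foxp3, and CD4 conventional with Cd4 and without Foxp3 or Cd8 genes. Cells with no TRB chain, a Trdc UMI and no coreceptor UMI were called γδ. Of 22590 barcodes, 20239 cells were kept, and each library gave 362 to 1493 CD4 conventional, 314 to 790 CD8, 19 to 150 Treg and 16 to 118 γδ cells. Most kept cells fell outside these classes. They were 6635 cells (32.8%) with a TRB chain and no coreceptor UMI, 240 with both coreceptors and 5017 others (24.8%) without a TRB chain. Sums of UMIs over a class in 1 library were used from 20 cells on, which left untreated replicate 1 out of the Treg and γδ sums. Levels are CPM, counts scaled in the usual way to the total UMIs of the sum, and all 5 T cell markers were present in every sum. Fibroblast markers summed to at most 8.65 CPM, B cell markers to 36.3 to 193 CPM and dendritic cell markers to 8.91 to 176 CPM. Their part in the results was not tested. In sums of cells, fewer positive cells and less RNA per positive cell cannot be told apart. Libraries shared 14 to 54 barcodes per pair.

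The first question was how the 6 genes are distributed over T cell classes. Compared with CD4 conventional cells, 4 of the 6 passed the test in CD8 cells and 5 of the 6 in Treg, and all 6 were lower in γδ cells. Of 8709 genes tested, 22.3% passed in CD8, 22% in Treg and 13.9% in γδ cells (7.38% lower). The median log2 fold change of the 6 genes was -0.26, -1.28 and -2.49 in that order, beside 0.01, -0.03 and -0.06 over all genes. The passing genes split into 893 higher and 1050 lower in CD8 cells, 1058 and 861 in Treg and 567 and 643 in γδ cells. Scaling by library size alone moved the median of all genes to 0.19 in Treg and 0.15 in γδ cells and the splits to 625 and 1259, 1901 and 469, and 863 and 400. The called directions of the 6 genes held there, and Ccr7 in Treg, not called, turned to 0.16.

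**Figure D1:**
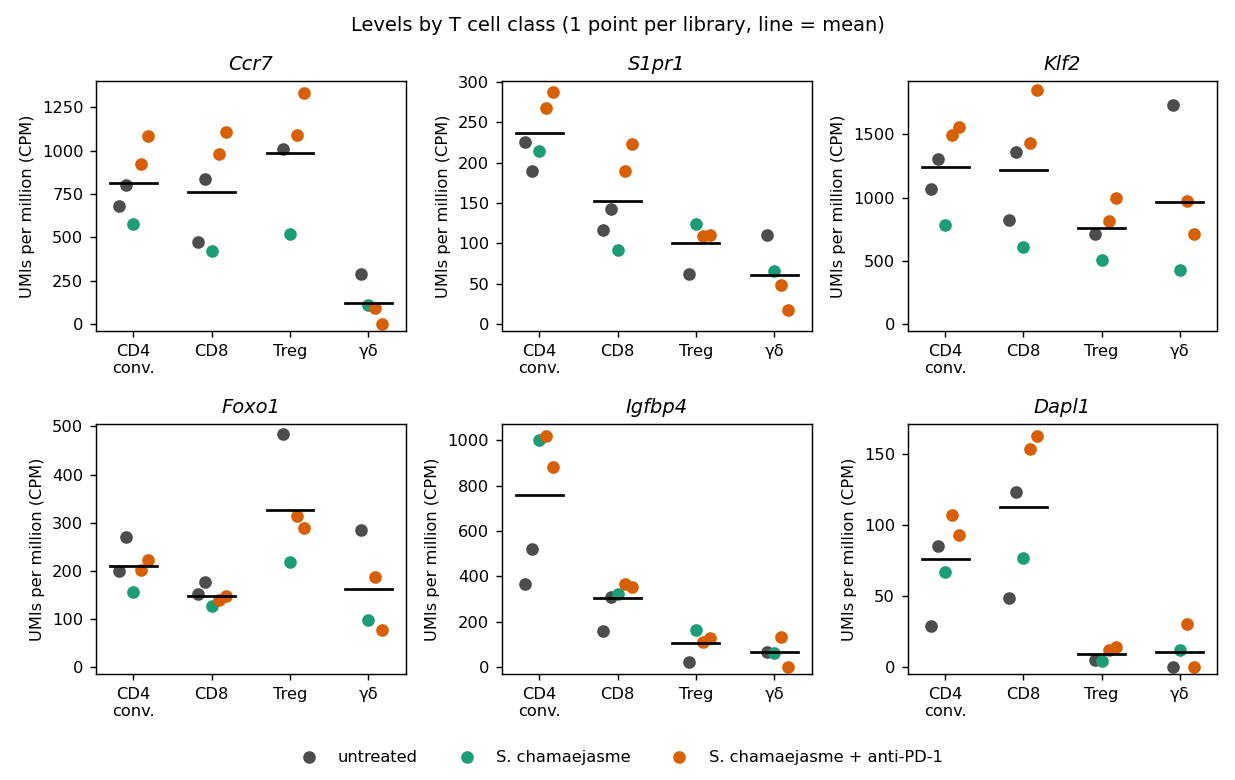
Levels of the 6 genes in CPM (y axis, linear, from 0) in CD4 conventional, CD8, Treg and γδ sums. Each point is 1 library coloured by group, the line is the mean, and Treg and γδ have 4 libraries. Ccr7 in Treg overlaps CD4 conventional cells, while Igfbp4 and Dapl1 are at the foot of the axis in Treg and γδ cells.

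Ccr7 overlapped between the αβ classes and was low in γδ cells. It stood at 682 and 802 CPM in untreated libraries, 573 CPM under S. chamaejasme and 920.4 and 1085 CPM under the combination in CD4 conventional cells. CD8 cells had 470.1, 837, 420.1, 981 and 1109 CPM in the same order, and Treg 1006, 521, 1091 and 1334 CPM from untreated replicate 2 on. These 3 ranges overlap, and the log2 fold changes against CD4 conventional cells were -0.09 ± 0.16 in CD8 (SE, 5 libraries, edgeR, adjusted p = 0.75) and -0.05 ± 0.18 in Treg (edgeR, adjusted p = 0.89). In γδ cells Ccr7 stood at 285, 108, 90.1 and 0 CPM, below every αβ sum, with a log2 fold change of -3.02 ± 0.28 (edgeR, adjusted p = 4.38e-09).

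S1pr1, the exit receptor, was lower than in CD4 conventional cells in each of the other classes. CD4 conventional cells held 225 and 189.7 CPM in untreated libraries, 214 CPM under S. chamaejasme and 268 and 288 CPM under the combination. CD8 cells held 117, 143, 91.3, 189.6 and 224 CPM, lower than the CD4 conventional sum of their own library in 5 of 5 libraries (log2 fold change -0.59 ± 0.13, edgeR, adjusted p = 0.0011). Treg held 61.7, 124, 109 and 109.7 CPM, a log2 fold change of -1.55 ± 0.20 (edgeR, adjusted p = 8.13e-07), and their range lies wholly below that of CD4 conventional cells. γδ cells held 109.7, 66.2, 48.1 and 17.3 CPM (-2.16 ± 0.29, edgeR, adjusted p = 2.80e-06), and this range overlaps that of Treg. In the same sums Treg thus held S1pr1 below the CD4 conventional range and Ccr7 in a range that overlaps it.

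Of the 2 transcription factor genes, Klf2 was lower in Treg and γδ cells and did not pass in CD8 cells. Klf2 stood at 1069, 1304, 779, 1499 and 1556 CPM in CD4 conventional cells of untreated replicates 1 and 2, S. chamaejasme and combination replicates 1 and 2. CD8 cells had 819.7, 1359, 612, 1433 and 1851 CPM, which overlaps (log2 fold change -0.03 ± 0.14, edgeR, adjusted p = 0.92). Treg had 712, 504, 814 and 999 CPM, lower in 4 of 4 libraries (-1.0 ± 0.16, edgeR, adjusted p = 3.55e-05), and γδ cells 1734, 429, 973 and 709 CPM, lower in 3 of 4 and higher in untreated replicate 2 (-0.78 ± 0.18, edgeR, adjusted p = 0.0019). Foxo1 had its highest median in Treg. It had 199, 271, 155, 203 and 222 CPM in CD4 conventional cells, 151, 178, 127, 139.6 and 147 CPM in CD8 cells and 484, 218, 315 and 289.8 CPM in Treg. The log2 fold change was -0.43 ± 0.09 in CD8 (edgeR, adjusted p = 0.00059), 0.39 ± 0.11 in Treg (edgeR, adjusted p = 0.012) and -0.70 ± 0.17 in γδ cells (edgeR, adjusted p = 0.0037). The Treg call was lost without untreated replicate 2 (0.31) or combination replicate 1 (0.37) and the γδ call without S. chamaejasme (-0.60). Each of these ranges overlaps that of CD4 conventional cells, while CD8 and Treg do not overlap each other.

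The naive cell transcripts Igfbp4 and Dapl1 were lowest in Treg and γδ cells. Igfbp4 had 366, 519.6, 1000.5, 1019.7 and 882 CPM in CD4 conventional cells and 160.4, 309.6, 323, 365 and 355 CPM in CD8 cells, and was lower in CD8 in 5 of 5 libraries (-1.22 ± 0.14, edgeR, adjusted p = 1.08e-07). Treg held 23.7, 162, 111 and 127 CPM, below every CD4 conventional sum (-3.17 ± 0.20, edgeR, adjusted p = 3.40e-12), and γδ cells 65.8, 63.7, 132 and 0 CPM (-3.88 ± 0.28, edgeR, adjusted p = 2.50e-11). Dapl1 was the 1 gene of the 6 higher in CD8 than in CD4 conventional cells, at 48.7, 123, 77.0, 154 and 163 against 28.6, 85.2, 66.9, 107 and 92.8 CPM, again in 5 of 5 libraries (0.62 ± 0.10, edgeR, adjusted p = 1.68e-05). In Treg it came to 4.75, 4.27, 12.2 and 14.5 CPM (-3.28 ± 0.24, edgeR, adjusted p = 5.30e-11), from 27 counts over all Treg. γδ cells gave 10 Dapl1 counts in all, with 0 in 3 of the 5 libraries.

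Expanded clones held a larger share of CD8 than of CD4 conventional cells in 4 of 5 libraries (next comparison), so the classes were also compared over cells of single clones alone. There Igfbp4 stayed lower in CD8 (-1.08, edgeR, adjusted p = 5.83e-10) and in Treg (-3.22, edgeR, adjusted p = 1.76e-15), S1pr1 likewise (-0.44 and -1.65), and Ccr7 did not pass in either (0.08 and -0.15). Other genes of these pathways divided differently between classes. Of the naive and central memory list, 3 higher and 3 lower of 14 passed in CD8, 1 higher and 10 lower of 14 in Treg and 4 higher and 8 lower of 14 in γδ cells. Of the tissue retention and activation list it was 6 higher and 8 lower of 19 in CD8, 13 higher and 2 lower of 19 in Treg and 11 higher and 2 lower of 19 in γδ cells. Among these, Itgae, the αE integrin chain that binds E-cadherin on epithelium, was higher in Treg (4.25, edgeR, adjusted p = 3.50e-12). Lef1 (-1.72) and Tcf7 (-1.78) were lower there. Igf1r, the receptor for the growth factor that IGFBP4 binds, was lower in CD8 cells (-1.78, edgeR, adjusted p = 3.68e-07) and higher in Treg (1.10, edgeR, adjusted p = 0.00091). It was the 1 of 4 tested IGF binding and signalling genes that passed in CD8 cells, and of 3 tested genes for ligands and S1P enzymes none passed in the 3 classes.

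Markers of other cells and of library quality differed between the classes as well, and their part in the results was not tested. In γδ cells the NK cell or innate lymphoid markers summed to 65.8 to 233 CPM (2 to 4 of 4 detected), against 1.33 to 4.34 CPM in CD4 conventional cells (1 or 2 of 4), with Ncr1, at or near 0 in the latter, and Eomes (log2 fold change 3.22) called as higher. Cdh1, likewise at or near 0 in CD4 conventional cells, Cd79b (4.22), H2-Aa (2.99) and H2-Ab1 (2.83) were also higher there. In Treg Epcam (2.83), Cd79b (2.56), H2-Ab1 (1.69) and Ighm (1.28) passed as higher. CD8 cells had more Cdh1, Eomes (3.27), Cd79b (2.97) and H2-Ab1 (0.96). Pecam1 was lower in all 3. AY036118 and Gm42418, transcripts used here as signs of library quality, were lower in Treg (-0.59 and -0.70) and in γδ cells (-0.53 and -0.54), as was Malat1 (-0.29 and -0.39), and none of these passed in CD8 cells.

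The next question was whether T cells whose receptor recurs in the same library carry these transcripts like cells whose receptor was seen once. A clone was a deposited clonotype, and its size the number of barcodes with it in the library's TCR data. Expanded clones had 2 or more cells. Expanded cells were 33.4% and 19.2% in untreated libraries, 43.8% under S. chamaejasme and 6.97% and 12.6% under the combination among CD8 cells. Among CD4 conventional cells they were 20.7% and 11.7% in untreated libraries, 22.0% under S. chamaejasme and 9.65% and 8.04% under the combination. Against single clones, 5 of the 6 genes were lower in expanded cells of both classes, and Foxo1 was higher. In CD8 cells 20.2% of 7061 genes passed (9.26% lower), and in CD4 conventional cells 22.8% of 6821 (10.2% lower). The median log2 fold change of the 6 genes was -3.32 and -2.14, beside -0.01 over all genes in CD8 cells. With scaling by library size alone the median of all genes was 0.15 and 0.18, and the split of passing genes went from 769 higher and 654 lower to 1285 and 418 in CD8 cells and from 853 and 699 to 1657 and 415 in CD4 conventional cells. Other transcripts moved with clone size, and their part in these results was not tested. AY036118 and Gm42418 were lower in expanded CD8 (-0.37 and -0.31) and CD4 conventional cells (-0.53 and -0.33), and Lars2 in the latter (-0.28, edgeR, adjusted p = 0.019). In expanded CD8 cells Ighm (-1.47, edgeR, adjusted p = 0.00024) and Pecam1 (-1.64, edgeR, adjusted p = 0.00023) were lower too. The B cell markers summed to 44.4 to 88.8 CPM in single and 15.6 to 84.7 CPM in expanded CD8 sums, and Ms4a1 and Pax5 were at 0 in all of these sums but the single one of combination replicate 1.

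**Figure D2:**
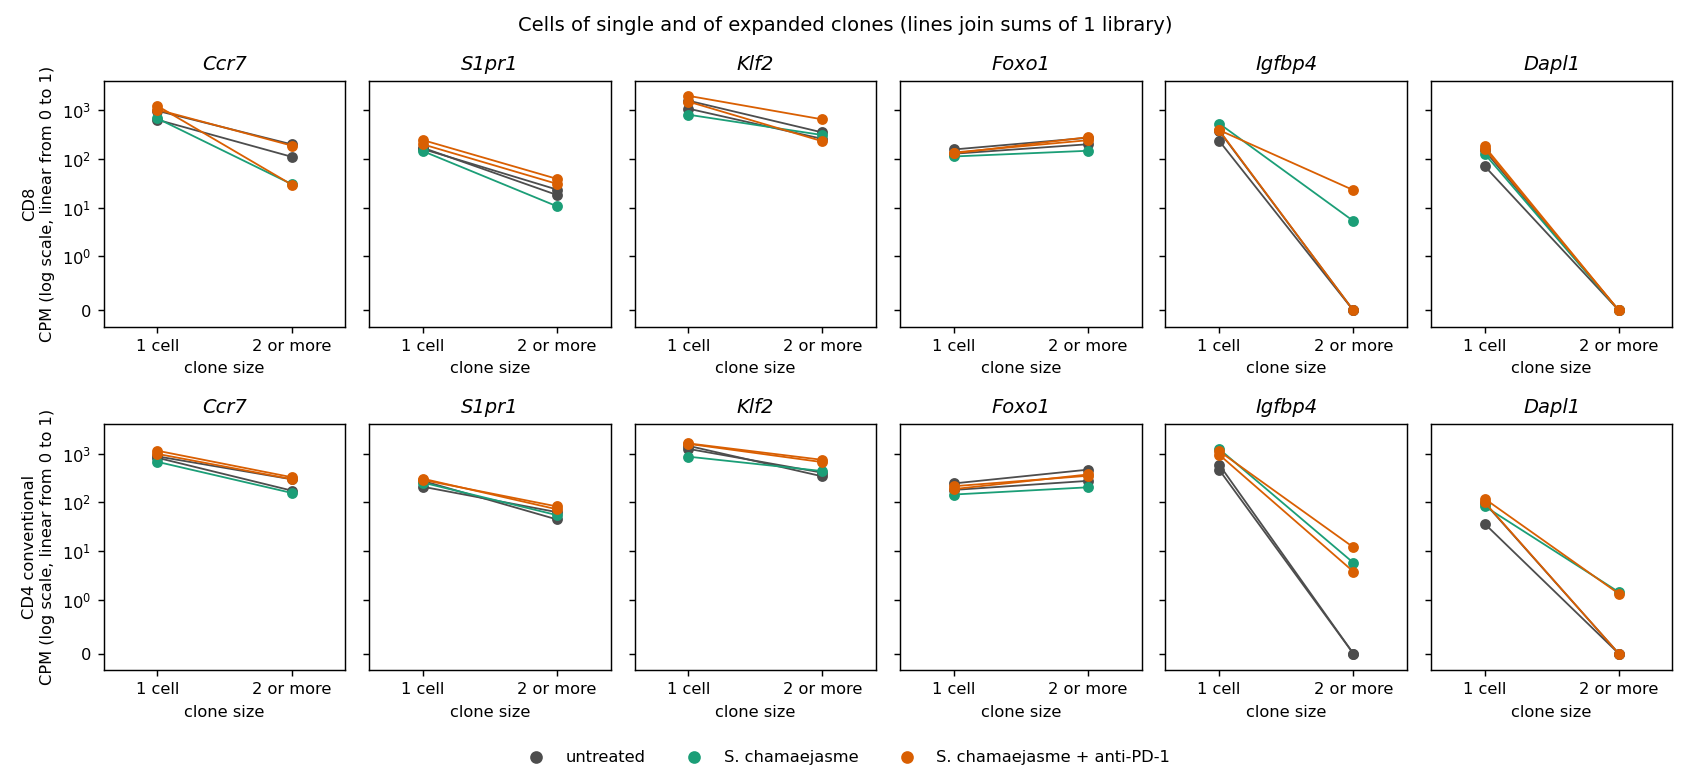
Levels in cells of clones of 1 cell and of clones of 2 or more cells (x axis), in CPM on a log axis that is linear from 0 to 1. The upper row is CD8, the lower CD4 conventional, and each line joins the 2 sums of 1 library. Dapl1 is 0 in all 5 expanded CD8 sums, and Foxo1 is the gene whose lines go up.

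Ccr7 in CD8 cells of single clones stood at 639.8, 977, 680.1, 1034 and 1233 CPM in untreated replicates 1 and 2, S. chamaejasme and combination replicates 1 and 2. Expanded CD8 cells had 111, 200.05, 30.4, 189 and 29.8 CPM (log2 fold change -3.42 ± 0.27, edgeR, adjusted p = 8.03e-09). The highest expanded sum, in untreated replicate 2, was below the lowest single one. In CD4 conventional cells Ccr7 went from 818, 874, 674, 983 and 1142 to 173, 295, 155, 298 and 327 CPM, a smaller fall (-2.04 ± 0.09, edgeR, adjusted p = 5.51e-12).

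S1pr1 went from 160.4, 170.1, 145, 200.2 and 245 to 23.5, 18.2, 10.6, 30.8 and 39.0 CPM in CD8 cells (-3.22 ± 0.16, edgeR, adjusted p = 1.77e-11). CD4 conventional cells went from 274, 208, 253, 287 and 304 to 44.1, 62.3, 54.1, 81.6 and 71.3 CPM (-2.24 ± 0.11, edgeR, adjusted p = 2.34e-11). Both homing receptors therefore fell further in CD8 than in CD4 conventional cells. The difference of the 2 clone effects, tested as an interaction chosen after the data were seen, was -1.36 ± 0.34 for Ccr7 (edgeR, adjusted p = 0.034) and -0.97 ± 0.22 for S1pr1 (edgeR, adjusted p = 0.023). Each was called in 5 of 9 alternatives. Without the S. chamaejasme library neither was called (-1.11, edgeR, adjusted p = 0.15, and -0.77, edgeR, adjusted p = 0.16). Nor were they without combination replicate 1 (-1.51 and -0.94), Ccr7 without combination replicate 2 (-1.0) or S1pr1 without untreated replicate 2 (-0.91). Klf2 gave -0.52 ± 0.21 (edgeR, adjusted p = 0.26) and was not called. In this interaction 1.91% of 7765 genes passed, Ighm (-1.52) and Pecam1 (-1.47) among them. Expanded CD8 cells numbered 105, 84, 346, 47 and 91 in the same library order, from 34, 22, 68, 18 and 28 clones. Expanded CD4 conventional cells numbered 75, 75, 195, 144 and 112, from 53, 53, 108, 78 and 66 clones. The part of this difference in clone size was not tested.

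Klf2 fell by less on the log2 scale than either receptor, a difference that was not tested. CD8 cells went from 1085, 1582, 814, 1513 and 1988 to 258, 351, 310.2, 231 and 651 CPM (-2.10 ± 0.14, edgeR, adjusted p = 9.49e-10), and CD4 conventional cells from 1246, 1441, 862, 1583 and 1617 to 403, 339, 436, 665 and 741 CPM (-1.55 ± 0.11, edgeR, adjusted p = 4.45e-09). Foxo1 rose, in 5 of 5 libraries of both classes. It went from 128, 157, 113, 130.2 and 136 to 201, 273, 147, 281 and 243 CPM in CD8 cells (0.57 ± 0.10, edgeR, adjusted p = 0.00028). CD4 conventional cells went from 179, 243, 144, 186 and 213 to 274, 466, 202, 371 and 349 CPM (0.59 ± 0.09, edgeR, adjusted p = 2.49e-05). The single and expanded ranges of Foxo1 overlap in both classes.

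Igfbp4 and Dapl1 were close to absent from expanded cells. Igfbp4 had 4967 counts in 2264 CD8 cells of single clones and 17 in 673 expanded ones, 399.8 against 5.93 CPM. In CD4 conventional cells it had 20897 against 15 counts, 979 against 5.59 CPM, a ratio of 175 (95% counting interval 106 to 313). The fits gave log2 fold changes of -6.28 ± 0.28 (edgeR, adjusted p = 6.84e-12) and -7.63 ± 0.19 (edgeR, adjusted p = 3.14e-16). Per library, single clones ranged from 236 to 536 CPM in CD8 and from 464 to 1240.2 CPM in CD4 conventional cells, and expanded clones from 0 to 22.9 and from 0 to 11.9 CPM. With every cell thinned to 2000 UMIs, 38.9% to 53.1% of single-clone CD4 conventional cells per library had an Igfbp4 UMI (46.0% to 61.5% unthinned), against 0% to 1.83% of expanded ones (0% to 1.79%).

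Dapl1 had 1916 counts in CD8 cells of single clones and 0 in expanded ones over 2864374 UMIs. Set against a floor of 3 counts over all expanded cells, its level in single clones was 147-fold higher. The lower end of the 95% counting interval of this ratio was 119.6. Per library the same floor gave 11.2-fold (untreated replicate 1) to 56.3-fold (S. chamaejasme). The 5 single sums held 71.6, 149.95, 128, 164 and 181 CPM and the 5 expanded sums 0. CD4 conventional cells had 2135 against 2 Dapl1 counts, a ratio of 134 with a counting interval of 37.1 to 1108. Counting intervals and floors cover counting error only.

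**Figure D3:**
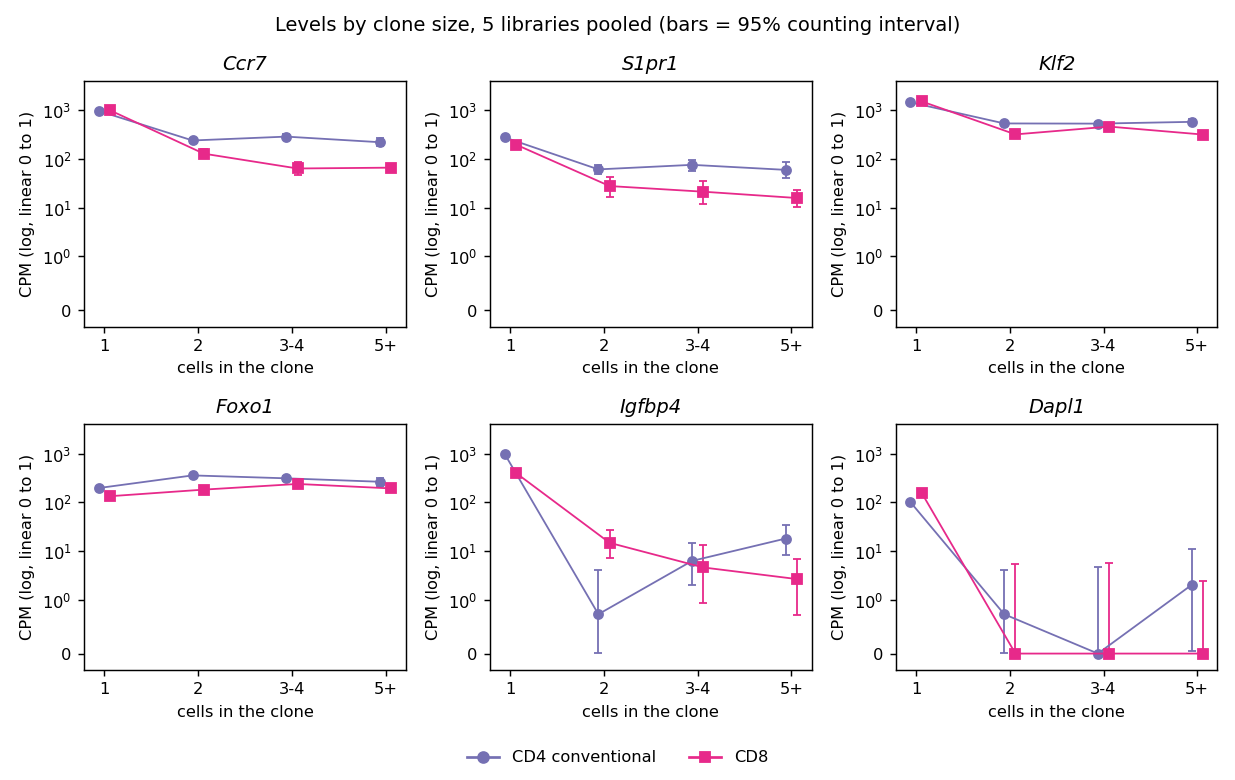
Levels by number of cells in the clone (1, 2, 3 or 4, 5 or more), with the 5 libraries pooled, in CPM on a log axis that is linear from 0 to 1. Bars are exact 95% Poisson intervals and circles and squares are CD4 conventional and CD8 cells. The main step lies between clones of 1 and of 2 cells for all genes but Foxo1.

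Most of the fall was present at clones of 2 cells. Pooled over libraries, Igfbp4 in CD4 conventional cells stood at 979 CPM in clones of 1, 0.728 CPM in clones of 2, 6.21 CPM in clones of 3 or 4 and 17.9 CPM in clones of 5 or more. Ccr7 in CD8 cells stood at 999.6, 129, 63.8 and 66.4 CPM, and S1pr1 at 198, 27.8, 21.3 and 15.8 CPM. Klf2 in CD4 conventional cells stayed level after the first step, at 1459.8, 538, 533 and 579.6 CPM. These pooled values weigh libraries by their depth and carry no test between sizes. Of the 9 Igfbp4 counts in CD4 conventional clones of 5 or more, 8 came from combination replicate 1. A cell called single may belong to a larger clone of the tumour, since a library samples few of its cells.

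Among the lists, naive and central memory genes were 0 higher and 12 lower of 14 in expanded CD8 cells and 1 higher and 9 lower of 13 in expanded CD4 conventional cells, with medians of -1.42 and -1.47. Lef1 (-2.63 and -2.48), Bach2 (-2.22 and -1.59) and Foxp1 (-1.0 and -0.72), transcription factor genes of resting T cells, were lower in both. Not all listed genes fell: in CD4 conventional cells Tcf7 did not pass (-0.09, edgeR, adjusted p = 0.53). Slamf6 of the naive and central memory list (0.58) and Runx1 of the quiescence list (0.42) were higher there. Tissue retention and activation genes were 15 higher and 0 lower of 18 and 15 higher and 0 lower of 17. They included Cxcr6, a chemokine receptor of tissue-resident T cells (2.63 and 2.19), and Cd69 (0.63 and 0.50). The homing and egress list gave 6 higher and 3 lower of 15 and 5 higher and 5 lower of 16. Of the FOXO and KLF list, 2 higher and 5 lower of 20 passed in CD8 and 2 higher and 9 lower of 18 in CD4 conventional cells. Il7r, a FOXO1 target, had -0.19 in CD8 (edgeR, adjusted p = 0.24) and was lower in CD4 conventional cells (-0.59, edgeR, adjusted p = 0.00029). The quiescence list gave 3 higher and 5 lower of 17 and 2 higher and 7 lower of 17, and Cdkn1b, the p27 cell cycle inhibitor, 0.01 and -0.04, which did not pass.

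Too few Treg belonged to expanded clones for a test (0 to 15 per library). Pooled, the 32 expanded Treg held Ccr7 at 802 CPM (124 counts) against 1127 CPM in single clones, and Klf2 at 795 against 836 CPM. Igfbp4 had 0 counts in expanded Treg and 266 in single ones, and at this depth 3 counts would be 19.4 CPM.

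The members were next compared between cells of 1 class that differed in a single marker, with all cells thinned to 2000 UMIs so that depth was equal. Among CD4 conventional cells with a Cd69 UMI, Igfbp4 was lower in 5 of 5 libraries (253, 539.8, 796, 877 and 745 against 516, 597, 1077, 1023 and 920.4 CPM in the library order used above, -0.35 ± 0.06, edgeR, adjusted p = 3.15e-05). S1pr1 was lower in 4 of 5 (-0.26 ± 0.08, edgeR, adjusted p = 0.045), and its call was lost in 8 of 12 alternatives, among them those without untreated replicate 2 (-0.22), S. chamaejasme (-0.19), combination replicate 1 (-0.30) or replicate 2 (-0.28). Klf2 gave -0.01 ± 0.04 (edgeR, adjusted p = 0.97), with 4 of 5 libraries higher in cells with Cd69, and Ccr7 -0.17 ± 0.05 (edgeR, adjusted p = 0.063). Foxo1 had 0.16 ± 0.07 (edgeR, adjusted p = 0.37), higher in 5 of 5 libraries, and Dapl1 -0.33 ± 0.13 (edgeR, adjusted p = 0.24). Of 6293 genes 3.86% passed. All ranges overlapped. AY036118 was lower in cells with Cd69 (-0.16, edgeR, adjusted p = 0.005), and its part was not tested.

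In CD8 cells the split was made by granzyme genes (Gzma, Gzmb or Gzmk), which encode proteases of killer granules. Here all 6 passed, where 18.4% of 4423 genes did. Ccr7 had 78.4, 146, 30.2, 143 and 103 CPM in cells with a granzyme UMI and 729, 1014, 504, 1125 and 1259 CPM in cells without (-3.51 ± 0.13, edgeR, adjusted p = 4.97e-22). S1pr1 (-2.99 ± 0.19), Igfbp4 (-3.91 ± 0.18) and Dapl1 (-4.21 ± 0.30) were lower as well. The ranges of the sums overlap for Klf2 (-1.72 ± 0.11), lower in 5 of 5 libraries, and for Foxo1 (0.42 ± 0.14, edgeR, adjusted p = 0.025), higher in 5 of 5. The Foxo1 call was lost in 5 of 12 alternatives, among them those without untreated replicate 1 (0.29), untreated replicate 2 (0.38) or combination replicate 1 (0.44). Cells with a granzyme UMI also had less Ighm (-1.59), AY036118 (-0.53) and Gm42418 (-0.57), each called. The part of these, and of clone size, which shares cells with this split, was not tested.

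**Figure D4:**
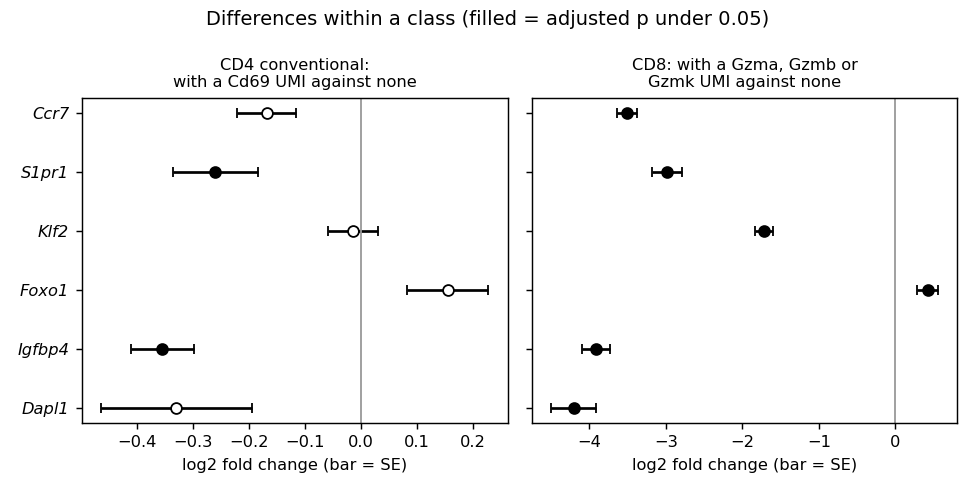
Log2 fold changes (x axis) of the 6 genes between cells with and without a UMI of Cd69 (CD4 conventional) or of a granzyme gene (CD8), with every cell thinned to the same depth. Bars are SE over 5 libraries and filled points passed at an adjusted p under 0.05. Foxo1 lies on the other side of 0 from the rest in both panels, though it did not pass in the Cd69 panel and Klf2 is close to 0 there. The Cd69 panel has the narrower axis.

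Within cells called single, the 6 genes were also set against each other cell by cell, as a description. All cells were again thinned to 2000 UMIs, and the values are ratios of CPM between cells with and without a UMI of a first gene in the same library. Single-clone CD4 conventional cells with Igfbp4 had 5.67 to 17.4 times the Dapl1 and 1.69 to 3.26 times the S1pr1 of cells without, and 0.306 to 0.576 times the Foxo1. Cells with Klf2 had 1.77 to 3.85 times the S1pr1. S1pr1-positive cells had 1.16 to 1.71 times the Ccr7. Every ratio among Ccr7, S1pr1, Klf2, Igfbp4 and Dapl1 was above 1 in 5 of 5 libraries except Ccr7 in cells with Dapl1, above 1 in 2 of 5 (0.798 to 1.05). In CD8 cells of single clones the same 4 genes without Dapl1 went together in 5 of 5 libraries, S1pr1 in cells with Klf2 being 2.11 to 4.25 times as high. Dapl1 was less tied to S1pr1 there (ratio above 1 in 2 of 5 libraries, 0.621 to 1.73). CD8 cells with Dapl1 had 1.34 to 2.45 times the Igfbp4 and 1.04 to 1.68 times the Ccr7, above 1 in 5 of 5 libraries. Their Klf2 was above 1 in 4 of 5 (0.951 to 1.70). Foxo1 in CD8 cells with Igfbp4 gave 0.75 to 1.08, on both sides of 1.

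The genes closest to each member were sought over 24 sums of class and clone size (5008 genes, Pearson's r of log2(CPM + 10)). These sums share 5 libraries, their depths and the class and clone differences above, so r is a description. Among its 5 closest genes Igfbp4 had Treml2 (r = 0.982), Klhdc2 (0.951), Lef1 (0.940) and Klhdc1 (0.930). S1pr1 had Cmah (0.935), Ifngr2 (0.932), Lef1, Klhdc2 and Igfbp4 nearest, and Klf2 had Sh3bp5 (0.921), Cmah, S1pr1 (0.894), Rps26 and Eef1b2. Dapl1 was nearest to genes of the translation machinery, Eef1b2 (0.976), Rpl10a, Rps20, Rps3 and Rps7. Ccr7 had the loosest neighbours, Il6ra (0.873), Patj, Rab3ip, Zfp281 and Bach2. Foxo1 had Ube2j1 (0.908), Ppil1, Jak2 and Nfkbiz among its 5 closest, and its r with the other members ran from -0.669 (Dapl1) to -0.107 (Ccr7).

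Cells with at least 3 UMIs of 8 cell cycle genes after thinning were rare, 6 to 14 per library and 51 in all, too few for a test. Pooled, they held Ccr7 at 353 CPM (95% Poisson interval 247 to 489), against 899.9 CPM in 13380 cells without such a UMI, and Klf2 at 784 (622 to 976) against 1489.9 CPM. Igfbp4 stood at 422 (305 to 568) against 662 CPM. Dapl1 had 137 (75.0 to 230.3) against 74.2 CPM, from 14 counts in the cycling cells. All of these counts came from the combination libraries, and the untreated and S. chamaejasme libraries had 0.

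The last question was whether the 6 genes differed between treatment groups. These fits have 2 residual degrees of freedom, and the S. chamaejasme library, alone in its group, was taken to have the spread of the other groups. The transcripts AY036118, Lars2 and Gm42418 stood higher in untreated than in treated libraries in all 3 αβ classes. AY036118 in CD4 conventional cells was 3177 ± 774 CPM (mean ± SD, n = 2) in untreated, 735 CPM with S. chamaejasme and 1057 ± 221 CPM with the combination. The sample titles follow 1 style for untreated and another for treated libraries, so batch and treatment cannot be told apart. Median UMIs per CD4 conventional cell were 3816.5 and 4355.5 in untreated libraries, 3868 with S. chamaejasme and 5306 and 5161 with the combination. In the same order this class was 16.1%, 18.3%, 17.6%, 30.6% and 30.5% of kept cells. The part of depth in which cells passed the gates was not tested.

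In CD4 conventional cells Igfbp4 was higher in both treated groups, and it was the 1 member that passed. It had 366 and 519.6 CPM in untreated libraries, 1000.5 CPM under S. chamaejasme and 1019.7 and 882 CPM under the combination, and both untreated libraries were below the 3 treated ones. The log2 fold change against untreated was 1.06 ± 0.16 with the combination (edgeR, adjusted p = 0.0049) and 1.10 ± 0.19 with S. chamaejasme (edgeR, adjusted p = 0.02). Of 10015 genes, 4.88% and 1.73% passed. In single clones alone the levels were 464, 593, 1240.2, 1121 and 948 CPM, and the log2 fold changes 0.93 (edgeR, adjusted p = 0.014) and 1.17 (edgeR, adjusted p = 0.024). Igfbp4 passed under all 14 and 13 alternatives of these 2 comparisons, with log2 fold changes of 0.82 to 1.39 and 0.85 to 1.43.

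The other members of CD4 conventional cells did not pass. With the combination S1pr1 had 0.41 ± 0.11 (edgeR, adjusted p = 0.052), Ccr7 0.40 ± 0.12 (0.084), Klf2 0.33 ± 0.12 (0.14) and Dapl1 0.65 ± 0.29 (0.22). With S. chamaejasme alone Klf2 had -0.67 ± 0.15 (edgeR, adjusted p = 0.051), Foxo1 -0.68 ± 0.18 (0.084) and Ccr7 -0.44 ± 0.15 (0.16). Both contrasts share the untreated libraries. Klf2 in these cells was lowest in the S. chamaejasme library (779 CPM), below both untreated libraries, and was called in 9 of 13 alternatives of that comparison.

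**Figure D5:**
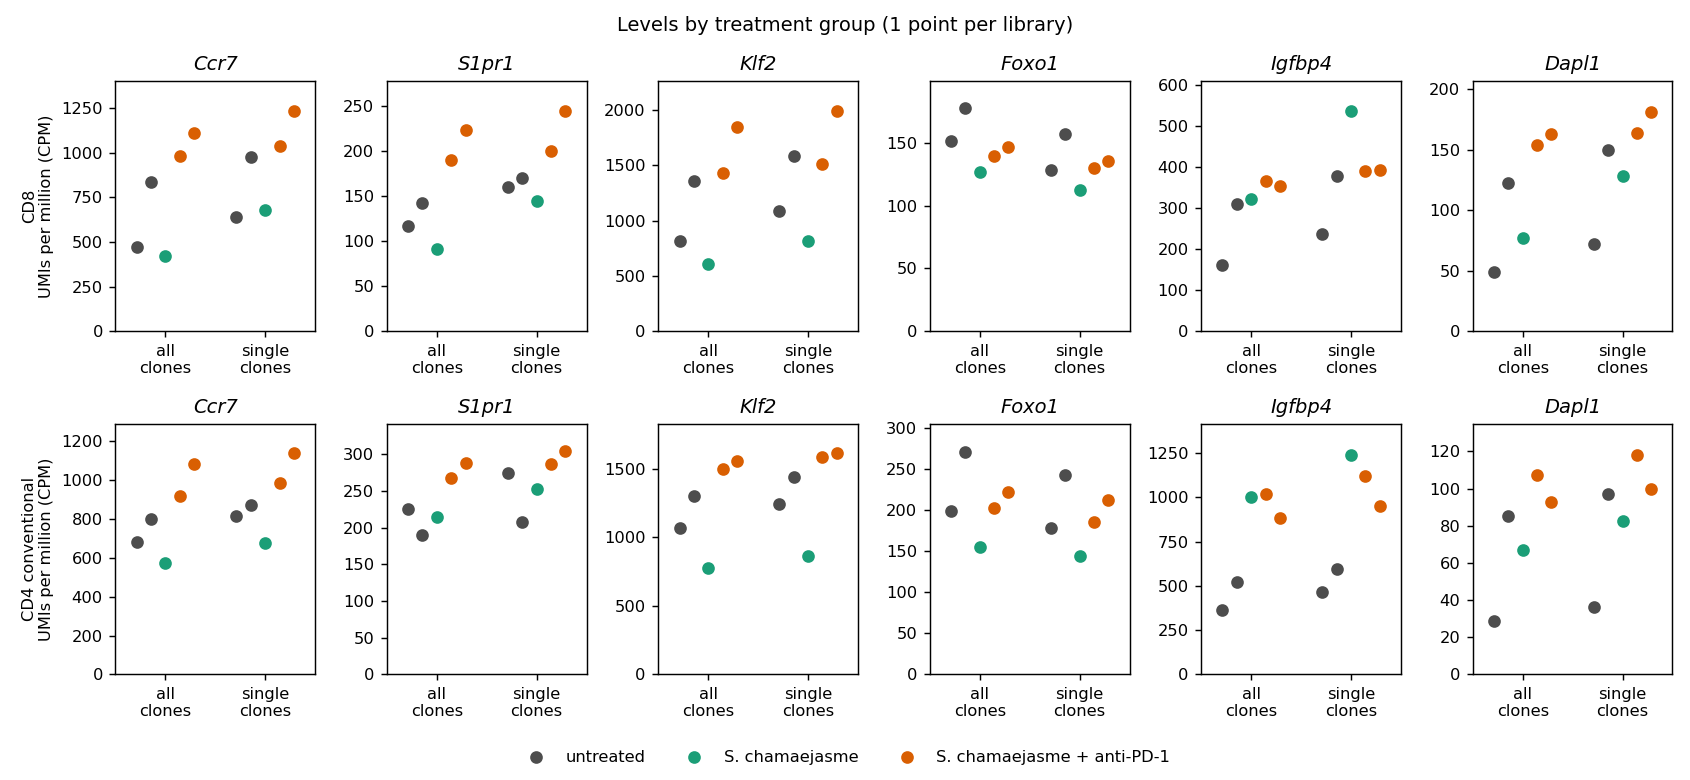
Levels in CPM (y axis, linear, from 0) in CD8 (upper row) and CD4 conventional cells (lower row), over cells of all clones and of single clones alone. Each point is 1 library, coloured by group. Igfbp4 in CD4 conventional cells has both untreated libraries below the 3 treated ones, over all and over single clones.

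In CD8 cells S1pr1 was the 1 member that passed with the combination. It had 117 and 143 CPM in untreated libraries, 91.3 CPM under S. chamaejasme and 189.6 and 224 CPM under the combination, and both combination libraries were above both untreated ones (0.69 ± 0.15, edgeR, adjusted p = 0.045, where 2.81% of 9858 genes passed). In single clones alone, with 160.4, 170.1, 145, 200.2 and 245 CPM, the log2 fold change was 0.44 and the call was lost (edgeR, adjusted p = 0.17). It was also lost without combination replicate 1 (0.80, edgeR, adjusted p = 0.069) or replicate 2 (0.56, edgeR, adjusted p = 0.30). Expanded CD8 cells, which held little S1pr1, were 19.2% and 33.4% of the untreated and 6.97% and 12.6% of the combination CD8 cells. The part of this share in the S1pr1 result was not tested. Ccr7 (0.68 ± 0.24), Dapl1 (0.84 ± 0.30), Igfbp4 (0.61 ± 0.25) and Klf2 (0.60 ± 0.24) did not pass. The untreated libraries differed widely from each other, with Dapl1 at 48.7 and 123 CPM. Without untreated replicate 1 Ccr7 came to 0.28 and without replicate 2 to 1.26, and the latter also took Klf2 to 1.11, Igfbp4 to 1.28 and Dapl1 to 1.81, all called in fits with a lone untreated library. With S. chamaejasme alone none of the 6 passed in CD8 cells (edgeR; 2.18% of genes did, and 1954 of 9858 had an unadjusted p under 0.05). Klf2 at 612 CPM and Ccr7 at 420.1 CPM were lowest in that library, whose share of expanded CD8 cells was highest. In single clones alone Klf2 was again lowest there (814 CPM), while Ccr7 (680.1 CPM) was above untreated replicate 1 (639.8 CPM). The part of the expanded share in these levels was not tested.

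Naive and central memory genes were 3 higher and 0 lower of 15 in CD8 and 3 higher and 0 lower of 14 in CD4 conventional cells with the combination. Tissue retention and activation genes were 0 higher and 5 lower of 19 and 0 higher and 7 lower of 18, with Cxcr6 lower in both (-1.21 and -1.53). The FOXO and KLF list gave 1 higher and 1 lower of 20 and 1 higher and 0 lower of 20. Of the dendritic cell markers, 2 higher and 0 lower of 3 passed in CD4 conventional cells, H2-Aa (3.21) and Cd74 (3.26) being the higher ones. Monocyte or macrophage markers in these cells summed to 52.5 CPM with S. chamaejasme (6 of 7 detected), against 3.99 and 4.04 CPM in untreated and 6.13 and 17.0 CPM in combination libraries. The part of either list in these results was not tested.

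Treg could be compared with 1 untreated library and 1 residual degree of freedom. Igfbp4 had 23.7 CPM there, from 5 counts, 162 CPM with S. chamaejasme and 111 and 127 CPM with the combination. It passed with the combination (2.24 ± 0.51, edgeR, adjusted p = 0.0023) and with S. chamaejasme (2.72 ± 0.56, edgeR, adjusted p = 0.00028), where 1.45% and 1.54% of 6667 genes did. Foxo1 was lower in both (-0.76 ± 0.22, edgeR, adjusted p = 0.039, and -1.19 ± 0.29, edgeR, adjusted p = 0.0057), and Ccr7 with S. chamaejasme (-0.99 ± 0.21, edgeR, adjusted p = 0.00052). When sums of 10 cells on were taken in, which adds untreated replicate 1 with 19 Treg and 0 Igfbp4 counts, none of these calls held, Igfbp4 having 2.85 (edgeR, adjusted p = 0.065) and 3.32 (edgeR, adjusted p = 0.088). With cells of high doublet score kept in, Igfbp4 came to 0.53 and 0.79 and was not called.

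Whether the clone effect itself differed between combination and untreated libraries was tested as an interaction. None of the 6 genes passed in CD8 cells, where 0.0991% of 7061 genes did (479 had an unadjusted p under 0.05), or in CD4 conventional cells, where 0.044% of 6821 did (445 had an unadjusted p under 0.05). For Igfbp4 and Dapl1 the expanded sums hold so few counts that no fold between groups can be read from them. Ccr7 had -1.35 ± 0.44 in CD8 cells (edgeR, adjusted p = 0.52) and Klf2 0.59 ± 0.19 in CD4 conventional cells (edgeR, adjusted p = 0.73). With 2 residual degrees of freedom, a gene that did not pass is not shown to have an equal clone effect. DESeq2 called 0 genes in both. Without combination replicate 1, 2 of the 6 genes were called in CD8 cells, where 9 higher and 9 lower of 7106 genes passed. Without untreated replicate 1, 1 of the 6 was called in CD4 conventional cells, where 33 higher and 11 lower of 8034 passed. Both fits leave a group with 1 library.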

How the data were processed

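Single-cell RNA libraries and matched TCR libraries of tumour-infiltrating T cells (5 of each) were used. The deposited matrices hold UMI counts per gene and cell, and the deposited contig tables hold productive TCR chains with read and UMI counts per contig and clonotype names. Cell Ranger 3.1.0, STAR and the mm10 genome are named in the submitters' processing notes, while the release of the gene annotation and the version of STAR were not stated. The 10 samples were grouped by their labels.

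Kept cells had 300 genes or more and no more than 10% of UMIs from mitochondrial genes. Cells with 2 or more productive TRB chains were removed, as were the highest Scrublet scores (scanpy 1.11.5) at 0.8% per 1000 cells, since the automatic threshold marked 17 cells. UMIs were summed per library and class. Sums were tested with edgeR 4.0.16 (quasi-likelihood test, TMM scaling, filterByExpr, library as a block for classes, clone sizes and splits), with Benjamini-Hochberg adjustment over all genes tested and a threshold of 0.05. SE was taken from the fold change and its F value. Libraries held 8763821 to 27759543 UMIs. Deeper libraries give smaller counting error. The edgeR steps were tested on simulated data. A few listed or closest genes, and a split of cells by 1 of them, are not reported here.

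Alternatives were other scalings, no filter on low counts, DESeq2 1.42.0, no library block, each library left out, thinned cells and other cell filters, gates and clone definitions. Single clones alone, sums of 10 cells on, and the clone effect compared between CD8 and CD4 conventional cells were added after the data were seen. The 6 genes and the lists (homing and egress, FOXO and KLF, quiescence, naive and central memory, tissue retention and activation, IGF, ligands and S1P enzymes) were chosen with earlier results of these data known. Besides the 6 genes, a set list of pathway genes, listed genes with the largest called changes, and the 5 genes of highest likeness to each member were named. Library quality transcripts and markers of other cells were named beside the results they touch.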

Additional observations from a re-analysis of the deposited data

Results flagged for a closer look

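Ccr7 and S1pr1 fell further from single to expanded clones in CD8 than in CD4 conventional cells, by a test of the difference itself. This test was chosen after the data were seen, and both calls were lost in some alternatives. The sizes of expanded clones differed between the classes, and the part of this was not tested. The difference of the log2 clone effects was -1.36 for Ccr7 (edgeR, adjusted p = 0.034), from -3.42 in CD8 and -2.04 in CD4 conventional cells. For S1pr1 it was -0.97 (edgeR, adjusted p = 0.023), from -3.22 and -2.24. Over 9 alternatives Ccr7 ranged from -1.64 to -1.0, with adjusted p up to 0.27, and S1pr1 from -1.14 to -0.77, with adjusted p up to 0.16.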

How the results depend on the processing

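Values of single genes under alternatives were tallied with the counts of members called for the clone effect between groups, and 931 stayed the same. For single genes this means the same direction and side of the threshold. Of the rest, 72 values lost their call, 49 gained one, 27 changed sign and 3 of the counts moved. The cause was not tested. No paired analysis was possible because the labels carry no replicate numbers (those used here follow accession order), so nothing ties an untreated library to a treated one. Classes, clone sizes and splits were paired within the library. The cell cycle split and expanded Treg were not run, having too few cells. Precision is limited by 314 to 790 CD8 cells and 19 to 150 Treg per library.

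Signs changed for these values, with the main value in brackets and none of them called in it. For Ccr7 in CD8 against CD4 conventional cells (-0.091) the values were 0.078 (single clones) and -0.17 to 0.0049 with each library left out. For Klf2 in CD8 against CD4 conventional cells (-0.032) the values were 0.042 (no library block), 0.012 (Cd3 gate), 0.089 (single clones) and -0.15 to 0.048 with each library left out. For Ccr7 in Treg against CD4 conventional cells (-0.051) the values were 0.16 (library size alone), 0.10 (no library block) and -0.11 to 0.0073 with each library left out. For Foxo1 in CD8 with the combination (-0.18) the values were -0.35 to 0.030 with each library left out. For Igfbp4 in CD8 with S. chamaejasme (0.30) the values were -0.14 to 0.96 with each library left out. For Dapl1 in CD8 with S. chamaejasme (-0.36) the values were 0.014 (single clones) and -0.87 to 0.61 with each library left out. For Foxo1 in CD4 conventional cells with the combination (-0.19) the values were -0.41 to 0.11 with each library left out. For S1pr1 in CD4 conventional cells with S. chamaejasme (-0.0014) the values were 0.057 (library size alone), 0.019 (no filter), 0.020 (no doublet removal), 0.048 (single clones) and -0.090 to 0.084 with each library left out. For Dapl1 in CD4 conventional cells with S. chamaejasme (0.038) the values were -0.48 (thinned), -0.14 (Cd3 gate) and -0.44 to 1.21 with each library left out. For Klf2 in the Cd69 split (-0.013) the values were 0.0064 (library size alone), 0.0013 (no filter) and -0.050 to 0.045 with each library left out.

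Counts of genes passing moved by over 1.5 times as follows. Without the library block 956 passed in CD8 (1943 with it) and 1156 in Treg (1919). Thinning gave 1252 in CD8, 1052 in Treg, 799 in γδ cells (from 1210), 821 and 951 for clone size in CD8 (1423) and CD4 conventional cells (1552), and 138 and 243 for the combination in CD8 (277) and CD4 conventional cells (489). DESeq2 gave 909 and 1002 for clone size, 101 and 168 for the combination, 52 and 74 for S. chamaejasme in CD8 (215) and CD4 conventional cells (173), and 111 and 472 for the Cd69 (243) and granzyme (816) splits. Clones of 5 or more cells gave 700 and 446. Single clones gave 145 and 280 for the combination and 102 and 75 for S. chamaejasme. The Cd3 gate gave 465 for the combination in CD8. No filter gave 1083 and 733 in CD4 conventional cells, and 282 for the clone effect in CD8 against CD4 conventional cells (148). In Treg, the combination (97) went to 17 (library size alone), 64 (no filter), 12 (DESeq2), 6 (thinned), 18 (at most 5% mitochondrial UMIs), 12 (Cd3 gate) and 1 (sums of 10 cells on). S. chamaejasme in Treg (103) went to 25 (library size alone), 18 (DESeq2), 2 (thinned), 22 (at most 5% mitochondrial UMIs), 13 (Cd3 gate) and 0 (sums of 10 cells on). The clone effect between groups in CD8 (7) went to 16 (library size alone), 32 (no filter), 0 (DESeq2), 4 (thinned), 4 (no doublet removal), 3 (at most 5% mitochondrial UMIs) and 4 (clones by CDR3). In CD4 conventional cells (3) it went to 7, 37, 0, 8, 0, 6 and 7 in that order.

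Leaving out each library gave 1435 to 1795 genes for CD8, 1171 to 1897 for Treg and 947 to 1166 for γδ cells, and 1062 to 1338 and 1135 to 1639 for clone size in CD8 and CD4 conventional cells. It gave 87 to 1267 and 217 to 1444 for the combination in CD8 and CD4 conventional cells, 89 in Treg, 103 to 1431 and 201 to 1421 for S. chamaejasme, 1 to 18 and 3 to 102 for the clone effect between groups, 70 to 130 for the clone effect between classes, and 178 to 237 and 623 to 736 for the Cd69 and granzyme splits. Without 1 untreated library the group counts rose the most.

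Library size alone shifted the split of passing genes from 90 higher and 125 lower to 164 and 60 for S. chamaejasme in CD8, from 69 and 104 to 80 and 66 in CD4 conventional cells, and from 430 and 386 to 803 and 237 in the granzyme split.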
